A study of Mus musculus with 16 samples.

Results

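The nuclear genes of oxidative phosphorylation were followed across 16 libraries of mouse glomerular RNA. Their members were the gene symbols that start with Nduf, Uqcr, Sdh and a single letter (Sdha to Sdhd), Cox4 to Cox8, or Atp5, and that had at least 1 FPKM in at least 7 of the 16 libraries. FPKM scales the fragments of a gene to its transcript length and to the mapped fragments of its library. Of 25791 symbols in the deposited table, 89 matched the names and 85 passed the level. All 85 were above that level in every one of the 16 libraries, so none entered through 1 group alone. They comprised 36 subunits of complex I, 4 of complex II, 7 of complex III, 14 of complex IV and 15 of complex V, 5 assembly factors and 4 symbols that share a prefix but are not placed in a complex here. The members were thus chosen by name and by a threshold on their FPKM level, and the same FPKM values entered the tests below. Cox4i2 lay just inside the threshold, with a mean of 2.94 FPKM. Just outside were Cox6a2, the heart and muscle isoform of subunit 6a, with at most 1.31 FPKM, and Cox7b2, with at most 2.62 FPKM, each at or above the threshold in 1 library. Cox8b had at most 0.241 FPKM and Cox8c was listed at 0 throughout.

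The 7 RAAS-blocked libraries came from mice that drank water with lisinopril (20 mg/day), which inhibits the enzyme that makes angiotensin II, and losartan (30 mg/day), which blocks its main receptor. The pair, given from 10 to 12 weeks until 26 weeks of age, acts on the renin-angiotensin-aldosterone system (RAAS). The other 9 libraries came from untreated mice, and the labels give no separate age for them. Mice of both groups were eNOS-/-//db/db, that is, without endothelial nitric oxide synthase and carrying 2 db alleles, which disable leptin receptor signalling, ate a standard diet, and model diabetic kidney disease; both alterations are carried in the germline. Mice without diabetes were not analysed here. After perfusion with iron, glomeruli from 1 kidney had been pulled out with a magnet. No label states for each library that it is a separate mouse, so a p-value here reflects only how these libraries vary, which may be technical.

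Oxidative phosphorylation passes electrons from NADH and succinate through complexes I to IV of the inner mitochondrial membrane to oxygen, and complex V, the ATP synthase, uses the resulting proton gradient to make ATP. Most subunits are encoded in the nucleus and a few in mitochondrial DNA. In the kidney the proximal tubule and the thick ascending limb, which drive active transport, are rich in mitochondria, and the glomerulus has fewer. Of 28 symbols looked for among the genes of mitochondrial DNA, 0 were in the deposited table, so these subunits could not be analysed here.

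The members' promoters are shown first for 4 genes to which the results return: Sdhb, whose level followed tubule markers closely, and Atp5g1, Atp5g2 and Atp5g3, which encode the same mature c subunit of ATP synthase from separate loci and did not all follow them alike. The sequences are those of RefSeq on GRCm38.p6, from 250 bases before to 50 bases after the annotated start, 5′ to 3′ along the gene. Capitals mark matches, on either strand, to GCATGCGC (the core bound by NRF1), CCGGAAG (a core bound by ETS factors such as GABP), AAGATGGC (YY1), AAGGTCA (estrogen-related receptors) and TATAAA (the TATA box).
Sdhb promoter, chr4:140961021-140961320, plus strand: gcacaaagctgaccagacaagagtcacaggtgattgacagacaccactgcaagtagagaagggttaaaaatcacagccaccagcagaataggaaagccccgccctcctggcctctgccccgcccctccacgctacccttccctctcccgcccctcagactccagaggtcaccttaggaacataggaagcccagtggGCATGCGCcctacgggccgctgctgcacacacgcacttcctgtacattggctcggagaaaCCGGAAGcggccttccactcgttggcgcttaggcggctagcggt
Atp5g1 promoter, chr11:96075582-96075881, minus strand: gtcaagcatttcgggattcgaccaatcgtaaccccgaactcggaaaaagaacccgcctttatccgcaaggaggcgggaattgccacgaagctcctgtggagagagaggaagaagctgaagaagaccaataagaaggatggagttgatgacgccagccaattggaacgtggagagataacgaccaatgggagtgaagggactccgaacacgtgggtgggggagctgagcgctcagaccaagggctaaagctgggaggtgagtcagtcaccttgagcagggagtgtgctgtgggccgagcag
Atp5g2 promoter, chr15:102670998-102671297, minus strand: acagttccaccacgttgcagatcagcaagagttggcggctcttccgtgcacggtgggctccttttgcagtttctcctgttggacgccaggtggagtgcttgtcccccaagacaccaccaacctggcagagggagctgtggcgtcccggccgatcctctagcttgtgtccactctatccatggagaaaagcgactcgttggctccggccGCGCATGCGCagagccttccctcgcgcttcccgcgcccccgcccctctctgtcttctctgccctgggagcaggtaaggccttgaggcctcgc
Atp5g3 promoter, chr2:73911277-73911576, minus strand: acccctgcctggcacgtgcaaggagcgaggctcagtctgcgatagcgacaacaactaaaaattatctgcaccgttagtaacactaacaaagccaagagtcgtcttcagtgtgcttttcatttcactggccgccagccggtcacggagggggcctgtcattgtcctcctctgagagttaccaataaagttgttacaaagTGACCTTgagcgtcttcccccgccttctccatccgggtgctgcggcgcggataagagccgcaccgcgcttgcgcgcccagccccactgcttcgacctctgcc
Sdhb held an NRF1 match whose first base was at -54 relative to the start and an ETS match at 6. Atp5g2 held 2 overlapping NRF1 matches, on opposite strands, at -42 and -40, Atp5g3 a match for the estrogen-related receptors at -52, and Atp5g1 none of the 5 motifs. Of 85 members 71 had a promoter in the RefSeq table, 64 of them subunits of complexes I to V. The NRF1 letters were in 15.6% of these 64 promoters and in 3.05% of the promoters of 27025 genes, the ETS letters in 25% and 9.93%, and the YY1 letters in 15.6% and 3.19%. The letters for estrogen-related receptors were in 12.5% against 5.38%, those of the TATA box in 7.81% against 15.7%, and CCAAT in 42.2% against 41.1%. The 27025 genes are all those with a promoter in the RefSeq table, not only genes expressed in these libraries. These are counts of letters in the windows and no test was made on them.

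The subunits rose and fell together from library to library. Group-centred Pearson correlations between pairs of genes averaged 0.87 within complex I, 0.90 within complex II, 0.93 within complex III, 0.71 within complex IV and 0.91 within complex V, against 0.00 over all pairs of 13286 genes tested. The points are 16 libraries with a shared scaling. The median level over the 76 subunits was lowest in RAAS-blocked replicate 4, at 101 FPKM, and highest in untreated replicate 4, at 229 FPKM. Together the members held 2.46% to 5.08% of the FPKM sum of the tested genes, and these extremes came from the same libraries. The ratio of a member's highest to its lowest library was 5.18 for Cox7a1, the muscle-type isoform of subunit 7a, and 1.31 for Cox4nb, the ends of its range over members. The genes that went with the others least were Ndufa4l2, Cox4i2 and Cox4nb, whose mean correlations with the subunits were -0.14, -0.12 and -0.08.

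**Figure D1:**
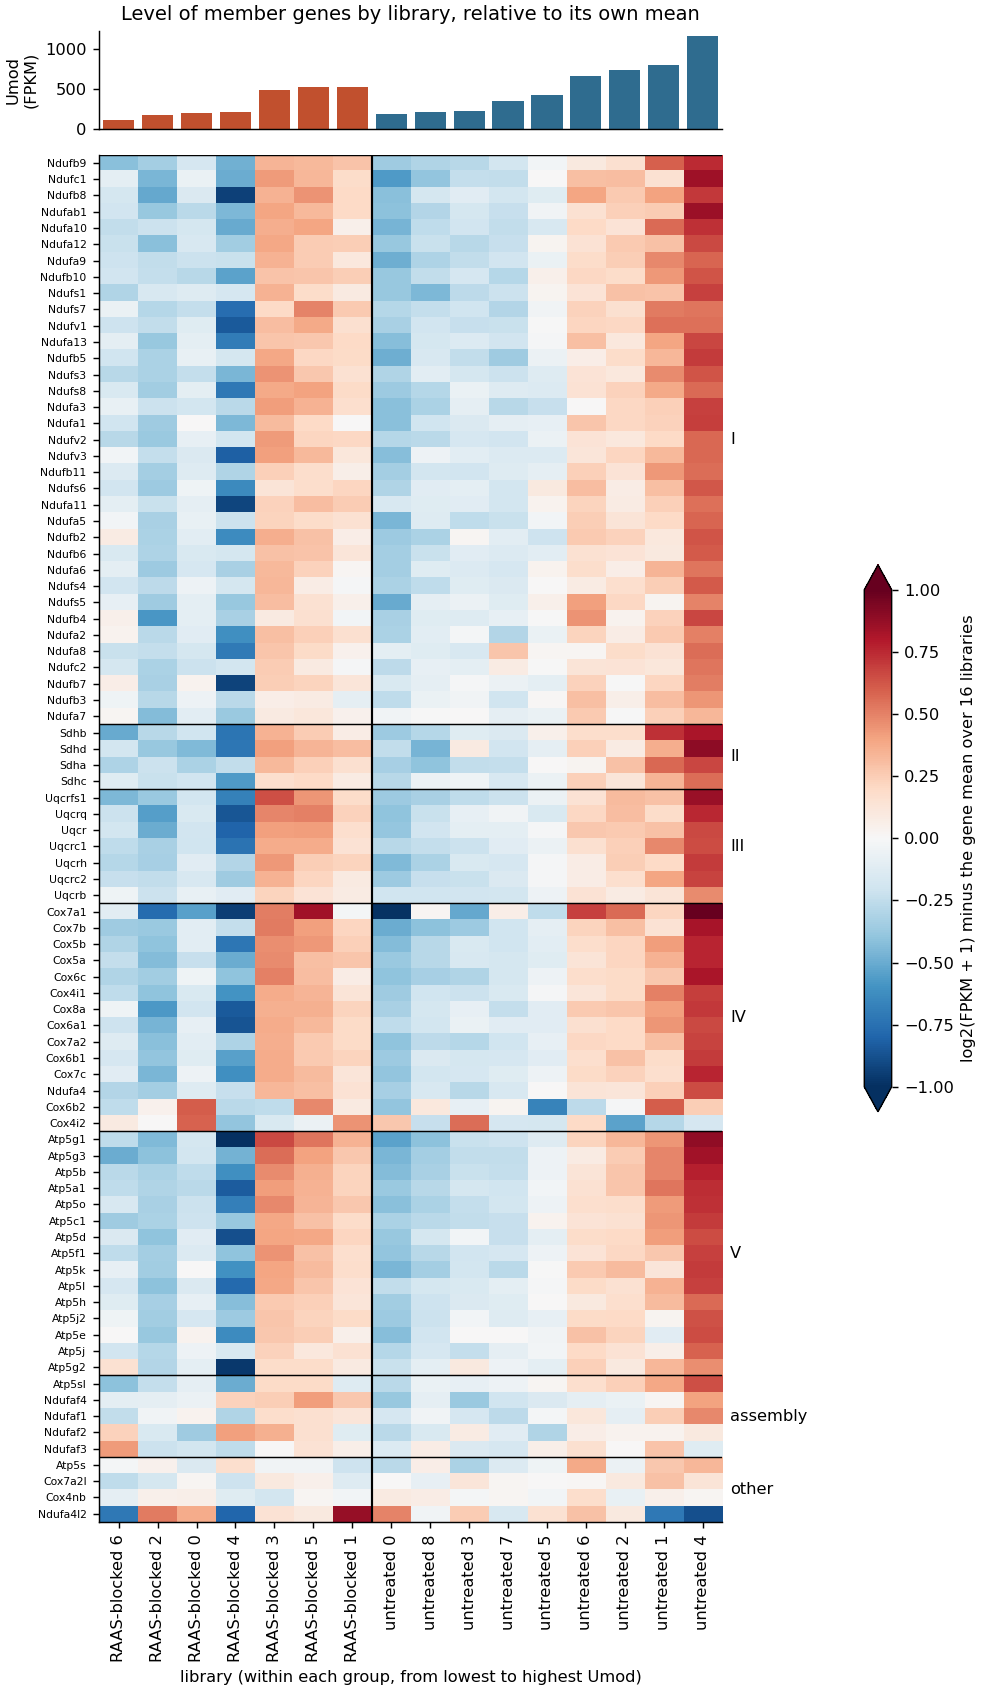
Level of 84 of the 85 members in each library as log2(FPKM + 1) minus the gene's mean over 16 libraries (colour), by complex, with 7 RAAS-blocked libraries on the left and 9 untreated ones on the right, each ordered by Umod (bars, FPKM). Most rows change colour together along the order of Umod, while Cox4i2, Ndufa4l2 and Cox4nb do not.

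The libraries differed in tubule content, and several differed in other ways. Umod (uromodulin, made by the thick ascending limb) had a lowest, median and highest level of 106.6, 214.7 and 526.9 FPKM in RAAS-blocked libraries and of 193.3, 432 and 1168 FPKM in untreated ones. Its mean was 318 ± 184 FPKM (SD, n = 7) in RAAS-blocked and 533 ± 333 FPKM (SD, n = 9) in untreated libraries, a log2 difference of -0.72 that an exact permutation test over 11440 splits did not separate from the spread between libraries (two-sided p = 0.147). Slc34a1, a phosphate carrier that marks proximal tubule cells, averaged 64.1 ± 60.2 FPKM in RAAS-blocked and 85.8 ± 94.8 FPKM in untreated libraries (exact permutation p = 0.819, two-sided). The 2 markers had a Pearson r of 0.76 on the log2 scale over the 16 libraries. The glomerular origin showed in Nphs1 (nephrin of podocytes), which ranged from 180.8 to 470.1 FPKM in RAAS-blocked and from 189.2 to 433.1 FPKM in untreated libraries. The FPKM sum was 1172000 in RAAS-blocked replicate 5 and 1105000 in untreated replicate 7, against 408500 to 492600 in the others. In each of these 2 libraries 1 symbol outside the tested genes held 63.5% and 60.9% of the sum, and the tested genes summed to 426500 and 430500. The mean Pearson r of a library with the others was lowest in RAAS-blocked replicate 6, at 0.924, and untreated replicate 1, at 0.927, and 0.936 to 0.962 elsewhere. RAAS-blocked replicate 4 had 16919 symbols above 0, against 17993 to 18613 in the other libraries. Its deviations from the gene means also followed base composition, with a Pearson r of -0.55 with the GC percentage of the longest coding transcript across the 85 members and of -0.50 across 12279 genes. The other 15 libraries gave -0.18 to 0.31 across the members and -0.14 to 0.19 across all genes. These correlations describe genes of 1 library, which are not independent replicates. In that library Atp5g2 (63.3% GC) lay 0.97 below its mean on the log2 scale and Ndufs1 (45.1% GC) only 0.16 below. Other members departed from this order. Atp5g1 (46.8% GC) had the lowest deviation of all members, -1.05, and Atp5j (56% GC) had -0.16. The longest coding transcript, of 4715 bases for Atp5g1, need not be the one measured.

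Between RAAS-blocked and untreated libraries no member passed the test. At a limma adjusted p of 0.05 the test called 0 of 85 members higher and 0 lower, where it called 0.00753% of all 13286 genes in each direction, that is 1 gene each. At an unadjusted p under 0.05 it held 0 members higher and 1 lower, against 2.71% and 3.42% of all genes. For none of the 85 did the groups' libraries fail to overlap, against 0.0376% of all genes that lay wholly higher and 0.0226% wholly lower in RAAS-blocked libraries. The member with the lowest p was Cox7a2l, which encodes a factor of respiratory supercomplexes. It had 99.5, 108.6 and 126.8 FPKM as lowest, median and highest value in RAAS-blocked libraries and 111.8, 120.6 and 145.7 FPKM in untreated ones. The log2 difference of Cox7a2l was -0.15 ± 0.07 (SE) with a limma adjusted p of 0.801, and the groups overlapped.

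The differences were small and mostly below 0. Of 85 members 77 had a log2 difference (RAAS-blocked minus untreated) below 0, against 55.3% of all genes, and the median was -0.10, against -0.02 for all genes. The members move together, so these signs are not 85 separate observations. The medians by complex were -0.10 for complex I, -0.17 for complex II, -0.10 for complex III, -0.09 for complex IV and -0.10 for complex V. This tilt depended most on 2 libraries, which were picked after the values were seen. Without RAAS-blocked replicate 4 the median was -0.02 with 54 members below 0, without untreated replicate 4 it was -0.02 with 51 below 0, and with both left out it was 0.06 with 14 below 0. Over the 16 fits that leave out 1 library the median ran from -0.16 to -0.02. It was -0.05 without untreated replicate 1 and also without RAAS-blocked replicate 2. Array weights gave 0.03. Umod and Slc34a1 were at 214.7 and 10.9 FPKM in RAAS-blocked replicate 4 and at 1168 and 237 FPKM in untreated replicate 4. The cause of the tilt was not tested.

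**Figure D2:**
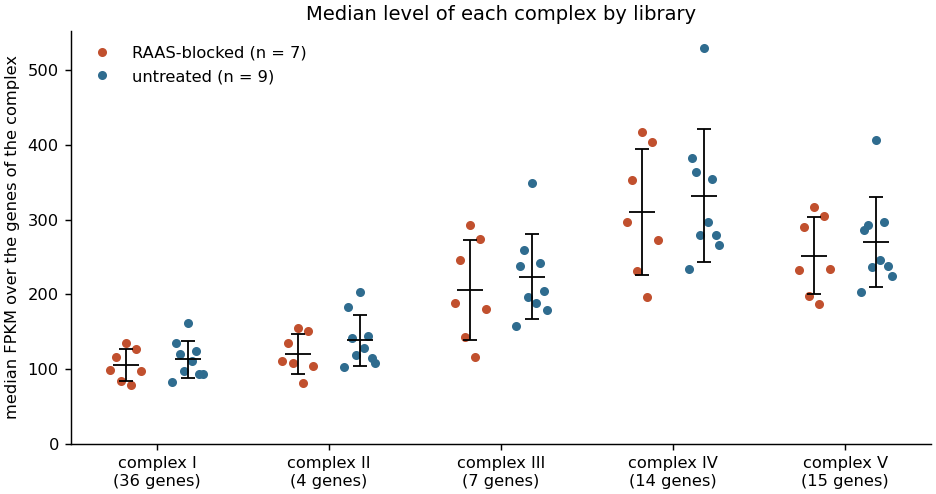
Median FPKM over the genes of each complex in each library (points), with group means and SD (black), RAAS-blocked (n = 7) left of untreated (n = 9). The groups overlap in all 5 complexes, and untreated replicate 4 is the highest point in each.

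With Umod and Slc34a1 as terms of the model the sign of the group difference turned, still without a call. The median over members was then 0.11 (all genes -0.01), 73 of 85 members were above 0, against 46.3% of all genes, and 0 were called higher or lower, where 0.00753% of all genes were called higher and 0% lower. At an unadjusted p under 0.05 there were 16 members higher and 0 lower, against 4.19% and 4.86% of all genes. Differences above 0 in this model were not particular to the members. In the same model 9 of 9 thick ascending limb markers other than Umod were above 0 (median 0.35). So were 12 of 12 distal tubule and collecting duct markers (median 0.40). Of 17 proximal tubule markers other than Slc34a1, 11 were above 0 (median 0.06). The glomerular lists were mixed. Above 0 were 0 of 12 endothelial (median -0.42), 2 of 11 podocyte (median -0.10) and 10 of 12 mesangial and smooth muscle markers (median 0.42). With group alone Umod differed by -0.72, against a median of -0.19 over the 10 thick ascending limb markers. The cause of the turn in sign was not tested. Ndufaf4, an assembly factor of complex I, had the lowest p of the members in this model. Its level was 5.99, 7.81 and 9.01 FPKM (lowest, median, highest) in RAAS-blocked and 4.78, 6.04 and 8.92 FPKM in untreated libraries. The log2 difference of Ndufaf4 was 0.23 ± 0.11 with group alone (limma adjusted p = 0.817) and 0.40 ± 0.08 with both tubule genes (limma adjusted p = 0.239). Leaving out 1 library gave medians over members of 0.06 to 0.20 in this model, the lowest without RAAS-blocked replicate 6 and the highest without RAAS-blocked replicate 4.

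**Figure D3:**
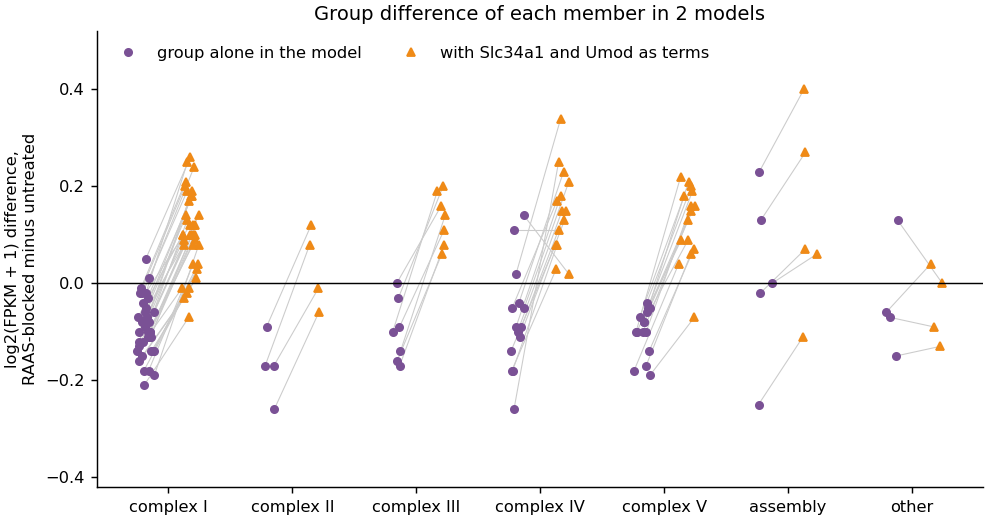
Difference in log2(FPKM + 1), RAAS-blocked minus untreated, for each member by complex, with group alone in the model (circles) and with Slc34a1 and Umod as further terms (triangles). Lines join the same gene, and the medians over members are -0.10 and 0.11.

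The members' levels followed the tubule markers in a model with group and 1 marker. The slope is the change of a gene on the log2 scale for 1 log2 unit of the marker. On Umod 73 of 85 members had a positive slope past a limma adjusted p of 0.05 and 0 a negative one, against 12.3% and 5.1% of all genes, with a median slope of 0.31 against -0.02. On Slc34a1 it was 41 positive and 0 negative, against 7.36% and 2.25% of all genes, with a median of 0.11 against -0.01. Of the complexes, the count for Umod was 33 of 36 in complex I, 4 of 4 in complex II, 7 of 7 in complex III, 12 of 14 in complex IV and 14 of 15 in complex V. Among the assembly factors it was 3 of 5, and among the 4 other symbols 0. Marker and members come from the same preparations, and more cells of a type and more RNA per cell cannot be told apart in such bulk RNA.

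Leaving out single libraries moved the count for Slc34a1 more than that for Umod. With Umod it gave 65 to 77 members, while 8.24% to 15.1% of all genes were called positive, and leaving out both replicate 4 libraries gave 70, against 9.02% positive and 3.81% negative. The count for Slc34a1 ran from 11 to 61: it was 11 without untreated replicate 4, 19 without untreated replicate 0, 20 without RAAS-blocked replicate 5, 25 without untreated replicate 1 and 7 without both replicate 4 libraries, where 4.58% of all genes were called positive and 1.67% negative. Over the single libraries left out, 4.67% to 8.89% of all genes were positive with Slc34a1. With both markers in 1 model, 16 members had a positive slope on Umod and 0 a negative one, against 1.29% and 0% of all genes, and 0 members had a slope on Slc34a1 in either direction, against 0.873% and 0.0301%. Within the 7 RAAS-blocked libraries alone 0 members were called with either marker, with median slopes of 0.27 on Umod and 0.09 on Slc34a1. Few genes of any kind were called there: 0.632% positive and 0% negative with Umod, and 0.933% and 0.309% with Slc34a1. Within the 9 untreated libraries 73 members were called positive with Umod, against 9.55% of all genes positive and 3.79% negative, and 35 with Slc34a1, against 6.12% and 1.44%. The difference in slope between the groups was tested directly. This interaction test called 0 members with Slc34a1, where it called 0% of all genes positive and 0.00753% negative, and 0 members with Umod, where it called 0% of all genes in either direction.

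**Figure D4:**
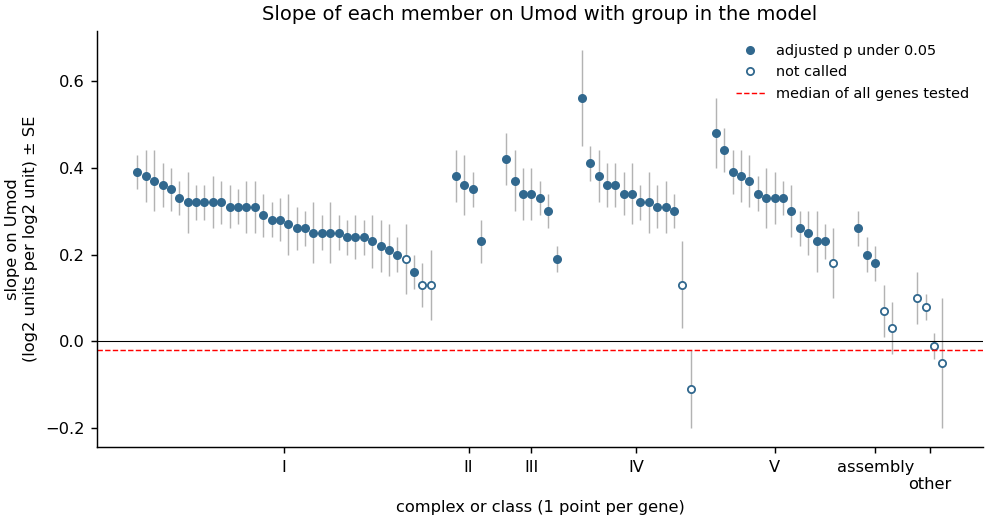
Slope of each member on Umod (log2 units per log2 unit, with group in the model) ± SE, by complex and in falling order. Filled points passed an adjusted p of 0.05 (73 of 85) and the dashed line is the median of all genes tested, -0.02.

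In complex I, which takes electrons from NADH, Ndufs1 and Ndufv1 belong to the arm that holds the NADH site and iron-sulphur clusters. Ndufs1 had 38.97, 44 and 61.64 FPKM as lowest, median and highest value in RAAS-blocked libraries and 35.06, 49.27 and 77.98 FPKM in untreated ones. Its slope on Umod was 0.32 ± 0.04 (limma adjusted p = 3.22e-05), and it is among the 16 members with a slope on Umod when Slc34a1 is also in the model. Ndufv1 had a slope of 0.32 ± 0.06. The accessory subunits Ndufb9 and Ndufa10 had the steepest slopes of complex I on Slc34a1, 0.16 ± 0.03 and 0.15 ± 0.03. Ndufb9, also the most abundant of complex I, averaged 244 ± 62.7 FPKM in RAAS-blocked and 267 ± 80.2 FPKM in untreated libraries, and its slope on Umod was 0.39 ± 0.04. Ndufab1, the mitochondrial acyl carrier protein, had a slope of 0.36 ± 0.05. Subunits of complex I that were not called with Umod included Ndufa7 (0.13 ± 0.05) and Ndufb7 (0.19 ± 0.08). Without group as a term Ndufa7 had a Pearson r of 0.68 with Umod (permutation p = 0.00292, adjusted 0.00608). Between the groups the lowest p in complex I belonged to Ndufa7, with 153 ± 22.8 FPKM in RAAS-blocked and 171 ± 19.7 FPKM in untreated libraries (log2 difference -0.16 ± 0.10, limma adjusted p = 0.854), and Ndufa8, at -0.21 ± 0.13 (limma adjusted p = 0.867).

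In complex II, succinate dehydrogenase, all 4 subunits were called with Umod. The complex also belongs to the tricarboxylic acid cycle. Sdhb, the iron-sulphur subunit whose promoter is printed above, had 80.1, 116 and 170 FPKM (lowest, median, highest) in RAAS-blocked and 104, 139 and 236 FPKM in untreated libraries. Its 2 highest libraries were untreated replicates 4 and 1, which also had the most Umod, and the groups overlapped. Sdhb had the largest difference of the complex between the groups, -0.26 ± 0.20 on the log2 scale (limma adjusted p = 0.894). Its slope was 0.38 ± 0.06 on Umod and 0.18 ± 0.03 on Slc34a1 (limma adjusted p = 3.19e-04 and 0.00174). Its Pearson r with Umod was 0.89 and its Spearman rho 0.90 (each with a permutation p of 1e-05, the smallest that 100000 resamples can give, and 1.46e-04 and 3.06e-04 after adjustment over 102 relations). The r was 0.82 within RAAS-blocked and 0.91 within untreated libraries and 0.84 without the 2 libraries farthest from the median. Sdha, the flavoprotein that oxidizes succinate, had a slope on Umod of 0.35 ± 0.04, and the membrane anchors Sdhd and Sdhc had slopes of 0.36 ± 0.07 and 0.23 ± 0.05. Sdhd was the least abundant of the 4, at 14.9 ± 4.84 FPKM in RAAS-blocked and 16.9 ± 5.47 FPKM in untreated libraries, where Sdha was at 139 ± 27.7 and 150 ± 43.7 FPKM.

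In complex III, which passes electrons from ubiquinol to cytochrome c, all 7 subunits were called with Umod. Uqcrfs1, the Rieske iron-sulphur protein, had 61.7, 87 and 155 FPKM (lowest, median, highest) in RAAS-blocked and 76.8, 95 and 181 FPKM in untreated libraries. Its slope of 0.42 ± 0.06 on Umod was the steepest of the complex (limma adjusted p = 1.49e-04), and that of Uqcrb was the shallowest, 0.19 ± 0.03. Uqcrb varied little between libraries, from 216 to 293 FPKM in RAAS-blocked and from 217 to 349 FPKM in untreated ones. The core subunit Uqcrc1 had a slope of 0.34 ± 0.06 and Uqcrh, the hinge protein, 0.33 ± 0.04. Uqcrh had the highest mean of the complex, 287 ± 64.2 FPKM in RAAS-blocked and 296 ± 75.9 FPKM in untreated libraries. The lowest p between groups was that of Uqcr (listed as Uqcr11 in RefSeq), with a log2 difference of -0.17 ± 0.19 (limma adjusted p = 0.927). Cyc1, the cytochrome c1 of this complex, is not caught by the names. It averaged 151 ± 55.2 FPKM in RAAS-blocked and 163 ± 52.4 FPKM in untreated libraries and had a slope of 0.45 ± 0.07 on Umod (limma adjusted p = 3.43e-04).

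Complex IV, cytochrome c oxidase, reduces oxygen and has several subunits with tissue isoforms. The widely expressed isoforms followed Umod: the slope was 0.34 ± 0.05 for Cox4i1, 0.32 ± 0.07 for Cox6a1, 0.32 ± 0.04 for Cox7a2, 0.34 ± 0.07 for Cox8a and 0.38 ± 0.06 for Cox5b. Ndufa4, first described in complex I and now placed in complex IV, had a slope of 0.30 ± 0.04. Cox7b had the lowest p of all members for the slope on Umod, with 102, 122 and 189 FPKM (lowest, median, highest) in RAAS-blocked and 93.1, 124 and 235 FPKM in untreated libraries and a slope of 0.41 ± 0.04 (limma adjusted p = 1.27e-05); it was named after its values were seen. Cox6a1 was the most abundant, at 601 ± 173 FPKM in RAAS-blocked and 671 ± 155 FPKM in untreated libraries (log2 difference -0.18 ± 0.18, limma adjusted p = 0.922). Cox7a1 had the steepest slope on Umod of all members, 0.56 ± 0.11 (limma adjusted p = 0.00334). It had 6.61, 12.6 and 25.1 FPKM (lowest, median, highest) in RAAS-blocked and 6.37, 14.3 and 33 FPKM in untreated libraries, so both groups spanned nearly the same levels.

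The minor isoforms Cox4i2 and Cox6b2 were the exceptions of complex IV. Cox4i2, the alternative isoform of subunit 4, which is known from lung and from oxygen-sensing cells, had 1.93, 2.86 and 4.78 FPKM (lowest, median, highest) in RAAS-blocked and 1.65, 2.41 and 4.65 FPKM in untreated libraries. Its slope on Umod was -0.11 ± 0.09 (limma adjusted p = 0.445), and that of Cox6b2 was 0.13 ± 0.10 (limma adjusted p = 0.363). Cox4i2 made up 0.671% ± 0.231 of the Cox4i1 and Cox4i2 sum in RAAS-blocked and 0.561% ± 0.276 in untreated libraries (exact permutation p = 0.403, two-sided, 0.747 after adjustment over 7 isoform shares). This share ran against Umod, with a Pearson r of -0.69 and a Spearman rho of -0.68 over 16 libraries (permutation p = 0.00343 and 0.00505, adjusted 0.00686 and 0.00954), and r stayed at -0.69 without the 2 libraries farthest from the median. Within RAAS-blocked libraries it was -0.51 and within untreated ones -0.78. The share contains Cox4i1, which itself followed Umod.

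Cox4i2 and Ndufa4l2 went with markers of mesangial and smooth muscle cells, in relations added after the values were seen. Ndufa4l2, a relative of Ndufa4 that is known to be induced by low oxygen, had 12.9, 25.6 and 43 FPKM (lowest, median, highest) in RAAS-blocked and 12.1, 24.7 and 32.9 FPKM in untreated libraries. Its slope on Umod was -0.05 ± 0.15 (limma adjusted p = 0.849), and its slope on Slc34a1 differed between the groups by 0.42 ± 0.10, which did not pass adjustment (limma adjusted p = 0.107). The Pearson r of Ndufa4l2 with Slc34a1 was 0.79 within RAAS-blocked and -0.68 within untreated libraries. The mesangial and smooth muscle marker level was the mean log2 level of 12 genes, among them Pdgfrb and Acta2. With it, Ndufa4l2 had a Pearson r of 0.64 and a Spearman rho of 0.64 (permutation p = 0.0069 and 0.01, adjusted 0.0121 and 0.0169), and Cox4i2 an r of 0.62 and a rho of 0.70 (permutation p = 0.00953 and 0.00345, adjusted 0.0159 and 0.00681). Without the 2 libraries farthest from the median of the marker level the r fell to 0.47 for Ndufa4l2 and 0.58 for Cox4i2. The podocyte list gave an r of -0.33 for Ndufa4l2 and -0.01 for Cox4i2 and the endothelial list 0.30 and -0.09, none past adjustment (adjusted permutation p from 0.262 to 0.965). Of the other members tried, Cox6b2 had an r of -0.03 with the mesangial and smooth muscle list and Cox7a1 of -0.23 (adjusted permutation p = 0.928 and 0.456). Within RAAS-blocked libraries the r with that list was 0.89 for Ndufa4l2 and 0.76 for Cox4i2, and within untreated ones 0.69 and 0.61. For Cox6b2 and Cox7a1 it had opposite signs in the groups. It was 0.70 and 0.44 within RAAS-blocked libraries and -0.66 and -0.45 within untreated ones. Ren1 and Akr1b7, genes of renin cells, are in that list; without them r was 0.72 for Ndufa4l2 and 0.56 for Cox4i2. All 12 marker genes had a group difference above 0 (median 0.49 on the log2 scale) and 0 were called; their part in the levels of both members was not tested. The summed level of the 12 genes ran from 595 to 2293 FPKM in RAAS-blocked and from 232 to 910 FPKM in untreated libraries. RAAS-blocked replicate 4, whose values fell with GC content, was the lowest of its group in this sum. It was also the lowest there in Ndufa4l2, at 12.9 FPKM, and in Cox4i2, at 1.93 FPKM. The part of that library in the r within RAAS-blocked libraries was not tested.

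**Figure D5:**
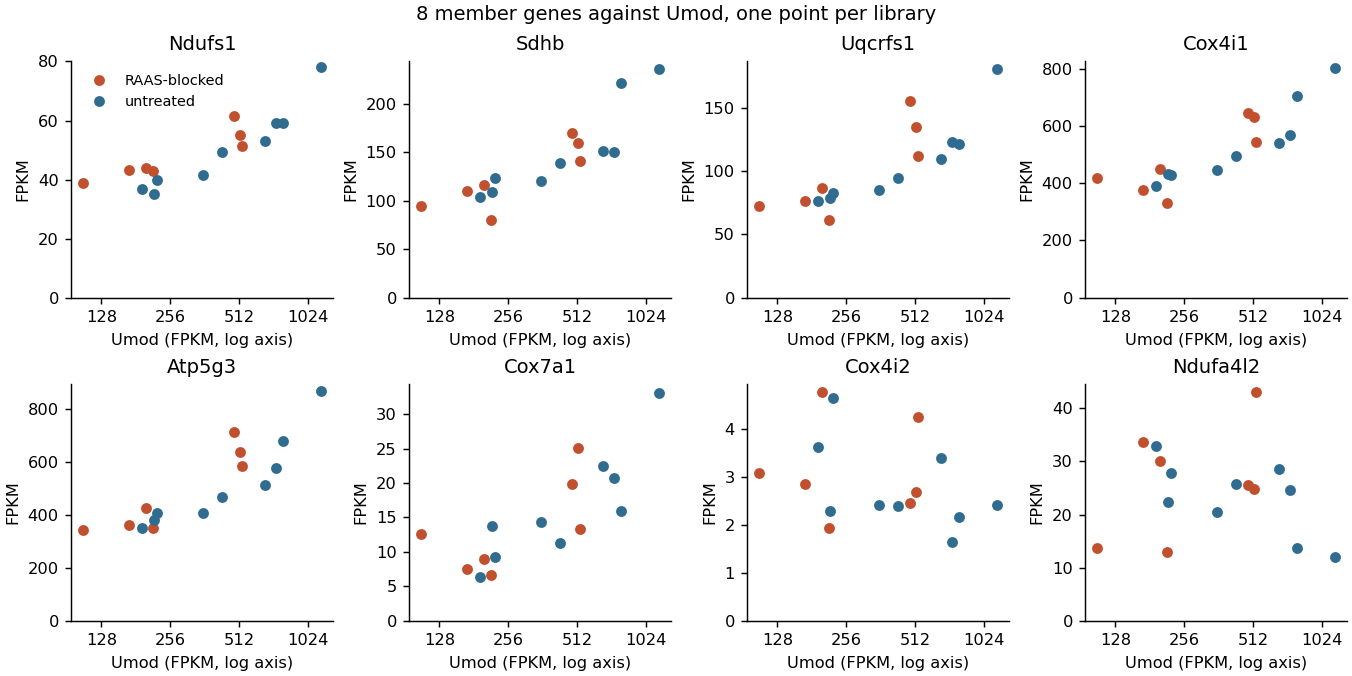
Level of 8 members (FPKM) against Umod (FPKM, log axis), 1 point per library, for RAAS-blocked and untreated mice (7 and 9 libraries). Ndufs1, Sdhb, Uqcrfs1, Cox4i1, Atp5g3 and Cox7a1 were called with Umod over the 16 libraries, while the slopes of Cox4i2 and Ndufa4l2 were -0.11 and -0.05.

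In complex V the catalytic subunit genes Atp5b (beta) and Atp5a1 (alpha) followed Umod with slopes of 0.39 ± 0.05 and 0.38 ± 0.06. Atp5b had the highest mean of all members. It had 448, 576 and 955 FPKM (lowest, median, highest) in RAAS-blocked and 508, 663 and 1177 FPKM in untreated libraries, and its log2 difference was -0.10 ± 0.20 (limma adjusted p = 0.955). The lowest p between groups in complex V belonged to Atp5g2, at -0.19 ± 0.16 (limma adjusted p = 0.902), and Atp5l, the g subunit, at -0.18 ± 0.17 (limma adjusted p = 0.922).

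The 3 genes for the c subunit, whose promoters are printed above, differed in how they followed Umod. Atp5g3 supplied most of their sum. Its level was 343, 426 and 714 FPKM (lowest, median, highest) in RAAS-blocked and 351, 466.4 and 869 FPKM in untreated libraries. The slope on Umod was 0.48 ± 0.08 for Atp5g1 and 0.44 ± 0.05 for Atp5g3 (limma adjusted p = 8.97e-04 and 2.34e-05). That of Atp5g2 was 0.18 ± 0.08, the only one in complex V that was not called (limma adjusted p = 0.125). Without group as a term Atp5g2 did rise with Umod over 16 libraries. Its Pearson r was 0.57 and its Spearman rho 0.72 (permutation p = 0.014 and 0.00208, adjusted 0.0223 and 0.00479). The r was 0.33 within RAAS-blocked and 0.84 within untreated libraries. Atp5g2 had 84.9, 177 and 190 FPKM (lowest, median, highest) in RAAS-blocked libraries, the lowest in replicate 4, and 143, 178 and 230 FPKM in untreated ones. Its share of the sum of the 3 genes was 20.2% ± 4.15 in RAAS-blocked and 21.3% ± 2.77 in untreated libraries (exact permutation p = 0.532, two-sided, adjusted 0.747). The share fell as Umod rose, with a Pearson r of -0.70 and a Spearman rho of -0.58 over 16 libraries (permutation p = 0.00261 and 0.0201, adjusted 0.00579 and 0.0307). The r was -0.80 within RAAS-blocked and -0.91 within untreated libraries, and -0.50 without untreated replicate 4 and RAAS-blocked replicate 6. The sum in this share contains Atp5g1 and Atp5g3, which themselves followed Umod, with steeper slopes than Atp5g2. Levels of these genes may share reads where their sequences are alike.

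Of the members outside the complexes, the assembly factors Ndufaf1, Ndufaf4 and Atp5sl (listed as Dmac2 in RefSeq) followed Umod, with slopes of 0.18 ± 0.04, 0.20 ± 0.04 and 0.26 ± 0.04. Ndufaf2 and Ndufaf3 were not called, at 0.07 ± 0.06 and 0.03 ± 0.06. Atp5sl had 11.1 ± 2.26 FPKM in RAAS-blocked and 13.5 ± 2.96 FPKM in untreated libraries (log2 difference -0.25 ± 0.13, limma adjusted p = 0.830). Cox4nb, listed as Emc8 in RefSeq, encodes a subunit of the endoplasmic reticulum membrane complex and carries a Cox prefix only by name. It varied least, between 9.16 and 11 FPKM in RAAS-blocked and between 9.93 and 12 FPKM in untreated libraries, with a slope on Umod of -0.01 ± 0.03. Cox7a2l had a slope of 0.08 ± 0.03 (limma adjusted p = 0.106). Without group as a term its Pearson r with Umod was 0.69 (permutation p = 0.00319, adjusted 0.00651).

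Other mitochondrial genes were read beside the members, from lists chosen with earlier results known. For comparison with each list, 12.3% of all genes were called positive and 5.1% negative with Umod. Between the groups 0.00753% of all genes were called in each direction. In the tricarboxylic acid cycle 18 of 18 genes were called positive with Umod (median slope 0.29), and 0 of 18 were called between the groups. Of 28 assembly factors outside the names, 8 were called positive and 0 negative with Umod, and of 18 glycolysis genes 11 and 0. Among 24 regulators of mitochondrial biogenesis, 8 were called positive and 2 negative. Ppargc1a, the coactivator PGC-1 alpha, had a slope of 0.62 ± 0.06 on Umod (limma adjusted p = 8.67e-06), with 2.68, 4.79 and 9.59 FPKM (lowest, median, highest) in RAAS-blocked and 3.40, 6.26 and 15 FPKM in untreated libraries. Esrra, the estrogen-related receptor alpha, had a slope of 0.29 ± 0.08 (limma adjusted p = 0.0164), and Tfam, the mitochondrial transcription factor A, 0.05 ± 0.04 (limma adjusted p = 0.464). None of 11 podocyte markers was called with Umod in either direction, with a median slope of -0.12, against 17 of 18 proximal tubule and 9 of 9 thick ascending limb markers called positive. The summed thick ascending limb level ran from 345 to 1608 FPKM in RAAS-blocked and from 435 to 2684 FPKM in untreated libraries. With the mean of that list without Umod as the marker, 76 members were called positive, against 14.2% of all genes positive and 6.65% negative. With the mean of the proximal tubule list without Slc34a1 in place of Slc34a1 it was 32 members, against 7.57% and 2.18%.

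The members' longest coding transcripts in GENCODE vM21 had a median of 934 bases, against 3108 bases for 12279 tested genes with a match. They ranged from 371 to 4942 bases. Their genes lay on 19 chromosomes, with at most 8 on any 1.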

How the data were processed

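Glomerular RNA from 16 libraries (7 RAAS-blocked, 9 untreated) was read from 1 deposited table of FPKM values made by the authors, with 25791 symbols. Libraries were made with a TruSeq mRNA kit, per the labels' protocols. Per the submitters' processing notes, the tools were Cuffdiff 2.2.1, Cufflinks, TopHat2 2.0.8, FastQC and CASAVA 1.8.2, listed without their roles. The sources used here do not give the build, annotation or strand use, and depth is unknown because the table holds no counts. An FPKM value depends on what else was counted in its library, and base composition can shift it. A 0 can be a failed estimate.

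Values were tested as log2(FPKM + 1) with limma 3.58.1 in R 4.3.3 (trend and robust variance) on the 13286 genes that reached 1 FPKM in 7 or more libraries, with Benjamini-Hochberg adjustment over all of them. The pseudocount of 1 understates changes of low genes. Models held group alone, group with centred log2 Slc34a1 or Umod, both markers, or a product term. Single relations used permutation tests with 100000 resamples in SciPy 1.17.1. The functions were tested on simulated data. Promoters came from RefSeq (GRCm38.p6).

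The members and lists were chosen with earlier results of these data known. Named genes are, per complex, the 2 of lowest group p, the 2 steepest and 1 lowest slope on Slc34a1 and the most abundant, plus fixed subunits, the genes at the threshold and the 2 of lowest p among the rest. Alternatives covered pseudocount, filter, scaling, variance model, array weights, replicate block, markers and leaving out libraries. The values of 1 member are not reported here, though it stays in the counts and medians.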

Additional observations from a re-analysis of the deposited data

Results flagged for a closer look

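Gaps were examined in 100 groups of libraries (each named gene, complex median and isoform share within each treatment group). In 9 an end value was set off from the nearest other by a gap larger than Dixon's 95% limit. Among separate groups chance gives about 1 in 20. These groups reuse the same libraries and genes that move together, so they are not 100 separate trials. In 8 of the 9, untreated replicate 4 was the high one: Uqcrfs1 at 181 FPKM (next 123), Uqcrb at 349 FPKM (next 278), Ndufaf4 at 8.92 FPKM (next 6.60), Ndufab1 at 98.3 FPKM (next 64.3), Ndufa4 at 704.5 FPKM (next 529) and Sdhd at 29.3 FPKM (next 20.0 FPKM). The same library had the highest median of complex IV, 529.9 FPKM (next 383), and of complex V, 406 FPKM (next 297). It also had the most Umod, 1168 FPKM. The other was the share of Atp5g1 among the c subunit genes in RAAS-blocked replicate 4, 14.8% (next 18.9%). In that library values fell with GC content, with an r of -0.55 across the members. Atp5g1 had the lowest GC of the 3 genes, 46.8%, against 50.5% for Atp5g3 and 63.3% for Atp5g2. The log2 deviations of Atp5g1, Atp5g3 and Atp5g2 there were -1.05, -0.47 and -0.97. The GC values are those of the longest coding transcripts, with 4715, 723 and 753 bases in that order. These need not be the transcripts measured. The part of tubule content or base composition in these values was not tested.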

How the results depend on the processing

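No setting called a member between the groups. The count of members with a positive slope on Slc34a1 was 41 and became 65 with quantile normalization, 7 with both replicate 4 libraries left out (chosen after seeing the data), 0 with Umod in the same model, 0 within RAAS-blocked libraries, and 11 to 61 when 1 library was left out. With quantile normalization 6.89% of all genes were called positive with Slc34a1 and 2.61% negative. The count for Umod was 73 and became 16 with Slc34a1 in the same model and 0 within RAAS-blocked libraries. The labels do not say that replicate numbers pair libraries, and the data did not settle it: 4 of 7 same-numbered pairs correlated over 0.1, the range was -0.28 to 0.43, and 2 untreated libraries correlated best with their own number. With the replicate block, which leaves fewer residual degrees of freedom, the counts were 0 for Slc34a1 and 12 for Umod. Of all genes, 0.188% were then called positive and 0% negative with Slc34a1, and 1.6% and 0.0376% with Umod.

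Some small values changed sign. With both tubule genes in the model the group difference was 0.077 for Uqcr, 0.059 for Uqcrc1, 0.030 for Cox6a1, 0.077 for Cox8a and 0.037 for Atp5l; with both replicate 4 libraries left out it was 0.017, 0.022, 0.015, 0.018 and 0.013 for the same genes; with array weights it was 0.017 for Uqcrc1 and 0.004 for Cox6a1. The slope on Slc34a1 with Umod in the model was -0.025 for Uqcrb, -0.121 for Cox7a1 and 0.040 for Cox4i2. For Cox4i2 it was 0.034 within RAAS-blocked libraries and 0.029 with the block. The slope on Umod was 0.010 with upper-quartile scaling and 0.014 with the block for Cox4nb, 0.003 within RAAS-blocked libraries for Cox4i2, and 0.088 with the block, 0.348 within RAAS-blocked libraries and 0.038 without both replicate 4 libraries for Ndufa4l2. Leaving out 1 library gave -0.018 to 0.003 for Cox4nb and -0.179 to 0.071 for Ndufa4l2. The cause was not tested. Depth is unknown, so counting error could not be set beside these values.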
